A study of Mus musculus and Rattus norvegicus with 2 samples.

Results

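miR-10a-5p, miR-10b-5p, miR-99a-5p, miR-99b-5p and miR-100-5p are 5 related microRNAs, short RNAs that guide Argonaute proteins to messenger RNAs. They were examined here in small RNAs of sperm from the cauda epididymis, the end of the duct where mature sperm are stored. They were 5 of the 299 mature miRNA names listed in both libraries together. Their reads were found in a pair of ways: by the miRNA name given to each sequence in the deposited lists, and, under any label, by the same first 18 nucleotides (nt) as the most abundant mouse sequence of each name. The mouse list held 225 such sequences with 13464 reads, of which 185 sequences carried one of the 5 names and 40 were found by their start alone. The rat list held 184 sequences with 7274 reads, of which 158 were named and 26 were found by their start alone. The mice were C57BL/6, aged 2 months, and the rats were Sprague Dawley, weighing 450 g. Both were made from Trizol RNA of 18 to 45 nt and read on an Illumina GAIIx. With 1 library per species, and the number of animals in each not given in the sources used here, species, strain, animal and library preparation cannot be told apart, and no test between the species was possible.

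An miRNA pairs with its targets mainly through its seed, bases 2 to 8 from the 5′ end, and Drosha and Dicer cut the mature strand out of a hairpin precursor. miR-10a and miR-10b are encoded within Hox gene clusters, whose genes set position along the body axis, and miR-99a, miR-99b and miR-100 are encoded beside let-7 and miR-125 genes. Cleavage that is shifted by a base, and bases added or removed at the 3′ end, give variants of a miRNA called isomiRs, and a shift at the 5′ end also changes the seed.

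The 5 mature mouse sequences, credited to RefSeq on GRCm38.p6, are shown because every count below rests on telling them apart. Capitals mark the seed.
miR-10a-5p: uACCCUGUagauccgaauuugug
miR-10b-5p: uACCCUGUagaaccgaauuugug
miR-99a-5p: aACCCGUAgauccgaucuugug
miR-99b-5p: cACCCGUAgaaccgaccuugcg
miR-100-5p: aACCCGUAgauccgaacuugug
miR-10a-5p and miR-10b-5p have the seed ACCCUGU, and the other 3 share the seed ACCCGUA. With positions counted from 1 at the 5′ end and in DNA letters, miR-10a-5p and miR-10b-5p differ only by T12A, where miR-10a-5p has the base given first. miR-99a-5p and miR-100-5p differ only by T16A. From miR-99a-5p to miR-99b-5p there are 4 substitutions, A1C, T11A, T16C and T21C.

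The single base that separates each close pair is in capitals in the same RefSeq sequences.
miR-10a-5p, base 12: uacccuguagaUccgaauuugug
miR-10b-5p, base 12: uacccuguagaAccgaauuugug
miR-99a-5p, base 16: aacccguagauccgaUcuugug
miR-100-5p, base 16: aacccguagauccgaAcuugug
Both bases lie inside the first 18 nt, so every read of that length tells the pairs apart. Both lie outside the seed.

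In the mouse genome (GRCm38, GENCODE M21), Mir10a lies at chr11:96317165-96317274 on the plus strand, inside no annotated gene, between Hoxb5, which ends 11044 bp before it, and Hoxb4, which begins 993 bp after it. Mir10b, at chr2:74726070-74726137 on the plus strand, lies in an intron of Hoxd3 and of Hoxd4. Mir99a, at chr16:77598936-77599000, lies in an intron of its host transcript Mir99ahg, with Mirlet7c-1 657 bp after it. Mir99b, at chr17:17830188-17830257, lies in an intron of Spaca6, a gene for a sperm protein needed for fertilisation. Mir100, at chr9:41531425-41531504, lies in introns of the non-coding genes 3110039I08Rik and Gm49317 and over an exon of Gm48742 on the opposite strand, with Mirlet7a-2 5212 bp after it. The mature strands themselves are at chr11:96317186-96317208 for miR-10a-5p and chr2:74726074-74726096 for miR-10b-5p. The hairpins of these miR-10 genes are given because the base just past the mature end is used below. Capitals mark the mature strand.
Mir10a: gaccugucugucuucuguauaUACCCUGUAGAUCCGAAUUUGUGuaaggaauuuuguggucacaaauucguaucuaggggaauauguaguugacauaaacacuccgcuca
Mir10b: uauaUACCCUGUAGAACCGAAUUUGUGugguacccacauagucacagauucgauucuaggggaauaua
In both hairpins the base before the mature strand is a and the base after it is u.

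The mouse list held 691381 reads and the rat list 2102735. Reads labelled as mature miRNA numbered 23507 (3.40%) for the mouse and 25951 (1.23%) for the rat. The intervals given below for counts and shares are exact 95% intervals, Poisson for a count and Clopper-Pearson for a share. They cover counting error only, and copies made by PCR are not independent molecules. The germ cell miRNAs miR-34c-5p, miR-34b-5p and miR-449a-5p had reads in both libraries (3 of 3) and made up 1.26% of the mouse mature miRNA reads and 23.8% of those of the rat. Epithelial miRNAs (5 of 5 with reads in both) made up 2.58% and 1.11%, and the stromal and muscle miRNAs (3 of 3) 10.3% and 3.25%. Of 5 blood miRNAs, 3 had reads in the mouse library (0.174%) and 2 in the rat library (0.00771%), with the red cell miRNA miR-451a at 8 and 0 reads by name and 15 and 11 by its first 18 nt. Reads from sperm and from other cells, and fewer cells of a type or less RNA per cell, cannot be told apart in such bulk RNA. These summed marker shares differed between the libraries, though not every member went the same way, and their part in the values below was not tested.

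The 5 miRNAs were 52.4% (51.7 to 53.0) of the reads labelled as mature miRNA in the mouse library and 27.2% (26.6 to 27.7) in the rat library. Nearly all of that was miR-10, at 50.5% and 25.6%, while the miR-99/100 names held 1.92% and 1.53%. Set against all listed reads of any class, the 5 miRNAs were 1.78% in the mouse library and 0.335% in the rat library. The difference between the species is therefore present under each denominator used, but its size is not fixed by these data.

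By deposited name, miR-10a-5p had 3856 mouse reads and 6646 rat reads. By name, miR-10b-5p reads numbered 8004 in mouse and only 2 in rat. The rat library thus nearly lacked that name. The first 18 nt gave another picture. By that start, miR-10a-5p had 3825 mouse reads and 2832 rat reads. By the same measure miR-10b-5p had 8132 reads (7956 to 8311) in the mouse library and 3478 (3363 to 3596) in the rat library. miR-10b-5p was thus the most abundant of the 5 in both libraries, and ranked 1 in both among the reference miRNA starts that could be counted (191 mouse and 166 rat starts with reads). In that set miR-10a-5p ranked 2 in the mouse library and 4 in the rat library. The set does not include miR-34c-5p, miR-143-3p or miR-375-3p, which were counted by name alone. By name, miR-34c-5p had 255 mouse and 5785 rat reads, miR-143-3p 2392 and 813, and miR-375-3p 380 and 163. The rat miR-34c-5p count was above both rat miR-10 counts by start, so with it included both would rank lower in the rat library. Other ranks among all miRNAs could be lower too.

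The miR-99/100 miRNAs were rarer, and there name and start gave similar counts except for mouse miR-100-5p. miR-99b-5p, the most abundant of them, had 373 mouse reads and 265 rat reads by start, against 343 and 236 by name. miR-99a-5p had 75 mouse reads and 144 rat reads by start, against 78 and 142 by name. miR-100-5p had 42 mouse reads (30.3 to 56.8) and 19 rat reads (11.4 to 29.7) by start, against 30 and 20 by name, and 12 of the mouse reads were under precursor entries. The order miR-10b-5p, miR-10a-5p, miR-99b-5p, miR-99a-5p, miR-100-5p held in both libraries, and the intervals of neighbours in that order did not overlap in either library. The mouse miR-100-5p count leaves out a sequence whose count was lost, and with calendar months read as counts it was 49. No interval was made for that count, so the lack of overlap with mouse miR-99a-5p holds for the main counts only. In the same limited set of starts, they ranked 7 and 10 (miR-99b-5p), 23 and 18 (miR-99a-5p) and 34 and 52 (miR-100-5p) in the mouse and rat libraries.

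**Figure D1:**
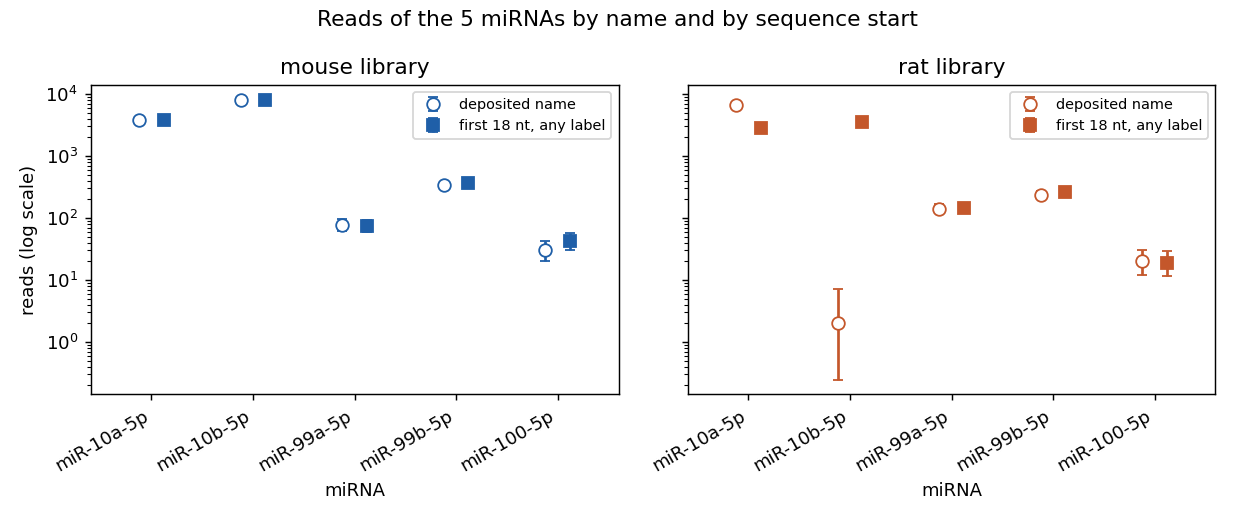
Reads of each miRNA (log scale) in the mouse and the rat library, counted by deposited name (open circles) and by first 18 nt under any label (filled squares), with exact 95% Poisson intervals. The marks of a miRNA lie close together except for miR-10a-5p and miR-10b-5p in the rat library, where the name miR-10b-5p has 2 reads and its start 3478.

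To set the species side by side, reads by start were scaled to 1000000 reads labelled as mature miRNA in each library, and a pseudocount of 1 was added before the log2. The interval of a log2 ratio was made from the exact 95% binomial interval of the mouse reads among the reads of both libraries. It leaves out the pseudocount and covers counting error only. The reads by start include 1153 mouse and 227 rat reads under precursor entries. The scaling total leaves out all reads under precursor entries, 7330 in mouse and 35878 in rat. The scaled values are therefore not shares of that total, and ratios scaled to mature and precursor reads together were not computed. On that scale miR-10b-5p stood at 345940 in the mouse library and 134022 in the rat library, a log2 ratio of mouse over rat of 1.37 (1.31 to 1.43). miR-10a-5p stood at 162717 and 109129, a log2 ratio of 0.58 (0.51 to 0.65). miR-99b-5p stood at 15868 and 10212 (0.64, 0.40 to 0.87) and miR-100-5p at 1787 and 732 (1.29, 0.47 to 2.15). miR-99a-5p was the exception, at 3191 and 5549, with a log2 ratio of -0.80 (-1.22 to -0.39), which turned to 0.66 when libraries were scaled to all listed reads. That change of scale alone adds 1.46 to a log2 ratio, and somewhat less for rare miRNAs because of the pseudocount. On the miRNA scale, 4 of the 5 ratios were above 0, where 47.7% of the 44 reference starts with at least 10 reads in both libraries were. A ratio of 1 or more was reached by 2 of the 5, against 20.5% of the 44, and a ratio of -1 or less by 0 of the 5, against 18.2%. The median was 0.64 over the 5 and -0.03 over the 44, which include the 5.

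Within each seed family the make-up also differed between the libraries. miR-10b-5p was 68.0% (67.2 to 68.8) of the 11957 mouse miR-10 reads and 55.1% (53.9 to 56.4) of the 6310 rat miR-10 reads. Among the miR-99/100 reads, miR-99b-5p was 76.1% (72.1 to 79.8) in the mouse library and 61.9% (57.1 to 66.5) in the rat library. miR-99a-5p was 15.3% (12.2 to 18.8) of them in the mouse library and 33.6% (29.2 to 38.3) in the rat library. miR-100-5p was 8.57% (6.25 to 11.4) and 4.44% (2.69 to 6.85), shares whose intervals overlap. These shares do not depend on how the libraries are scaled, and apart from miR-100-5p the intervals of the 2 libraries did not overlap.

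The base at position 12 was then read directly, in all reads that matched the rest of the shared 18 nt start. In the mouse library 3825 reads had the miR-10a base T, 8132 had the miR-10b base A and 4 had another base (0.0334%). In the rat library 2832 reads had T, 3478 had A and 5 had another base (0.0792%). The bases of neither miRNA, which give the level of error at this position, were thus far rarer than either miR-10 base in both libraries. The ratio of miR-10b to miR-10a reads was 2.13 in the mouse library and 1.23 in the rat library.

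The rat miR-10b reads were in the list under the name of miR-10a. Of 6646 rat reads named miR-10a-5p, 6539 could be placed by bases 3 to 18 of a member, and 3562 of these (54.5%, 53.3 to 55.7) carried the miR-10b base. They were 28 distinct sequences, and for all 28 the deposited row itself listed the change from T to A, at its place in the read, as a mismatch to the entry. In the mouse library 0 of 3814 placed reads named miR-10a-5p carried the miR-10b base, which allows a share of up to 0.0967%. Reads named miR-10a-5p matched their entry without a mismatch in 97.2% of cases in the mouse library and in 43.9% in the rat library. The named reads were also set against the first 18 bases of each mature sequence, with mismatches and shifted starts allowed. On that measure 62 rat sequences named miR-10a-5p (3021 reads) were nearest to miR-10a-5p and 60 (3620 reads) to miR-10b-5p. Another 3 (5 reads) were equally near to both.

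The sequences named miR-10a-5p in the rat list that carried the miR-10b base and had at least 100 reads are given here with the base at position 12 in capitals.
2582 reads, 22 nt: taccctgtagaAccgaatttgt
208 reads, 21 nt: taccctgtagaAccgaatttg
186 reads, 23 nt: taccctgtagaAccgaatttgtg
132 reads, 18 nt: taccctgtagaAccgaat
131 reads, 20 nt: taccctgtagaAccgaattt
117 reads, 21 nt: accctgtagaAccgaatttgt
The first 5 begin at the reference start and the last begins 1 base after it. The first of these is also the most abundant miR-10b sequence of the mouse library, where it had 6841 reads under the name miR-10b-5p and no mismatch. The corresponding miR-10a sequence, the most abundant of that miRNA in both libraries, had 2848 mouse reads and 1707 rat reads.
miR-10a-5p, 22 nt: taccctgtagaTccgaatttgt
The 2 rat reads that did carry the name miR-10b-5p begin 3 bases after the reference start, and the second ends in an extra base.
1 read, 20 nt: cctgtagaaccgaatttgtg
1 read, 21 nt: cctgtagaaccgaatttgtgg
No such exchange of names was seen for the other 3 miRNAs: no sequence of miR-99a-5p, miR-99b-5p or miR-100-5p with 10 or more reads carried another member's name in either library. miR-99a-5p and miR-100-5p also differ by a single base, and their names and bases went together in both libraries at that number of reads.

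Names also depended on length. Reads of 24 nt or more placed on a member were all under precursor entries and not under a mature name: 484 for miR-10a-5p and 636 for miR-10b-5p in the mouse library, and 77 and 108 in the rat library. From 18 to 23 nt, 7910 of 8231 mouse miR-10b-5p reads were under their own name and 321 under a precursor entry. In the rat library 0 of 3781 such miR-10b-5p reads were under their own name, 3562 were under miR-10a-5p, 218 under a precursor entry and 1 under another entry. Counting by name therefore also leaves out the longest isomiRs in both species.

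The reference sequence of both miR-10 miRNAs is 23 nt long, but the usual read was 22 nt. Among reads with the reference start, miR-10a-5p was 22 nt in 75.5% (74.1 to 76.8) of mouse reads and 60.8% (59.0 to 62.6) of rat reads. miR-10b-5p was 22 nt in 85.0% (84.2 to 85.8) and 75.1% (73.6 to 76.5). The 23 nt form made up 4.47% of miR-10a-5p and 3.38% of miR-10b-5p reads in the mouse library, and 7.77% and 6.12% in the rat library. In each library miR-10b-5p was thus more uniform in length than miR-10a-5p. The rat reads were also shorter. Reads of 18 to 20 nt were 2.22% (1.78 to 2.74) of mouse and 15.8% (14.5 to 17.2) of rat miR-10a-5p, and 1.23% (1.002 to 1.49) of mouse and 9.66% (8.70 to 10.7) of rat miR-10b-5p. Reads of 24 nt or more went the other way, at 12.3% (11.3 to 13.4) of mouse and 2.65% (2.09 to 3.31) of rat miR-10a-5p, and 7.69% (7.12 to 8.29) and 3.02% (2.48 to 3.64) of miR-10b-5p. The longest miR-10a-5p read was 24 nt in both libraries, while miR-10b-5p reached 42 nt in the mouse library and 27 nt in the rat library. Whether the size selection or the state of the RNA differed between the libraries was not tested.

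**Figure D2:**
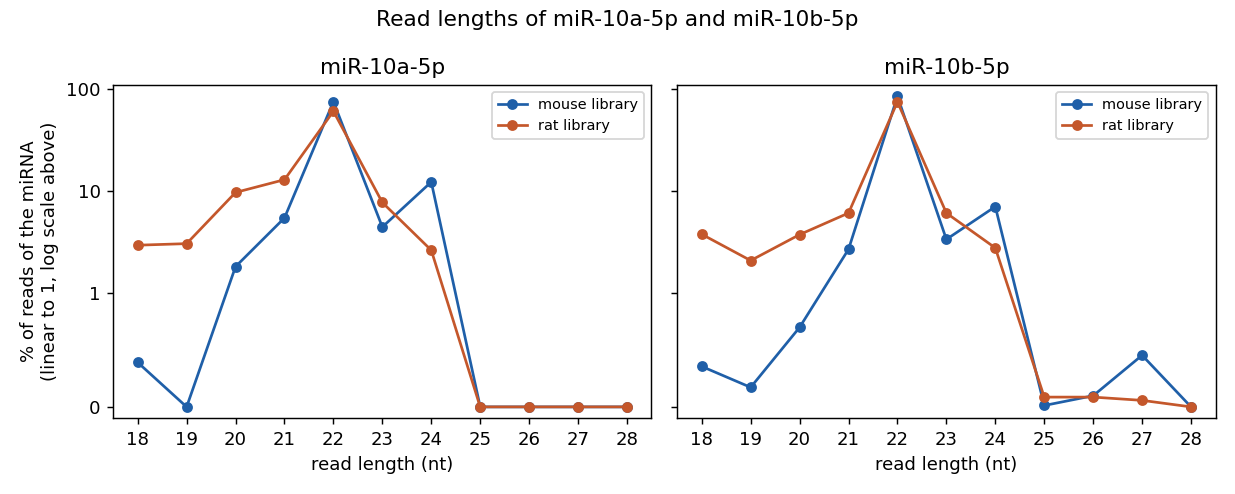
Share of the reads of miR-10a-5p and miR-10b-5p with the reference start (vertical axis in percent, linear to 1 and log scale above) at each length in nt (horizontal axis), in the mouse and the rat library. All 4 curves peak at 22 nt, with the rat curves higher from 18 to 21 nt and the mouse curves higher at 24 nt. The 0 for mouse miR-10a-5p at 19 nt is of counted reads only.

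The share of miR-10b-5p in miR-10 reads varied with read length. In the mouse library it was 38.7% (30.8 to 47.0) at 20 nt, 50.6% (47.4 to 53.7) at 21 nt, 69.7% (68.8 to 70.6) at 22 nt and 57.9% (54.8 to 60.9) at 23 nt. In the rat library it was 31.7% (27.3 to 36.3), 40.9% (37.5 to 44.4), 59.7% (58.3 to 61.2) and 53.4% (49.9 to 56.9) at these lengths. It was lowest at 20 nt and highest at 22 nt of these lengths in both libraries, and at each of 21 and 22 nt the mouse share was above the rat share with no overlap of intervals. A single length therefore gives another ratio of miR-10b to miR-10a than all lengths together.

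In the miR-99/100 family the usual length depended on the member. miR-99a-5p was most often 22 nt, its reference length, in both libraries (41 of 75 mouse reads and 72 of 144 rat reads). miR-99b-5p was most often 22 nt in the mouse library (46.4%, 41.2 to 51.6) and 21 nt in the rat library (52.1%, 45.9 to 58.2), where the 22 nt form was 24.5% (19.5 to 30.2). miR-100-5p was most often 21 nt in the mouse library (28 of 42 reads) and 22 nt in the rat library (9 of 19). The mouse 22 nt form of miR-100-5p had no count of its own, because a calendar month stands in the place of its identifier. Read as a count, that month would raise the mouse total from 42 to 49. The most abundant mouse sequences are shown with the seed in capitals.
miR-99a-5p, 41 reads: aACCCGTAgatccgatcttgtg
miR-99b-5p, 167 reads: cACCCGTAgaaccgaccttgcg
miR-100-5p, 28 reads: aACCCGTAgatccgaacttgt
The 22 nt sequence of miR-99a-5p was also its most abundant one in the rat library, with 72 reads.

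A read that begins a base late escapes a count by its first 18 nt, so starts were read from bases 3 to 18, which placed 4570 mouse and 3221 rat reads on miR-10a-5p and 8867 and 3889 on miR-10b-5p. In the mouse library 686 miR-10a-5p reads (15.0%, 13.99 to 16.1) and 708 miR-10b-5p reads (7.98%, 7.43 to 8.57) began 1 base after the reference start. In the rat library the counts were 322 for miR-10a-5p (9.997%, 8.98 to 11.1) and 390 for miR-10b-5p (10.03%, 9.10 to 11.02). The late start was thus more frequent for miR-10a-5p than for miR-10b-5p in the mouse library, with intervals that did not overlap, and had overlapping intervals in the rat library. As a result miR-10b-5p was 50.8% (48.1 to 53.4) of mouse miR-10 reads with the late start, against 68.0% at the reference start. In the rat library it was 54.8% of late and 55.1% of reference starts.

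The late start moves the seed from ACCCUGU to CCCUGUA, which is in capitals here.
miR-10a-5p, late seed: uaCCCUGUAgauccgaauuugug
miR-10b-5p, late seed: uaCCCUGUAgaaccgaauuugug
The miR-99/100 miRNAs rarely had it. Of their reads, 0 of 78 mouse and 0 of 150 rat miR-99a-5p reads began a base late, which allows up to 4.62% and 2.43%. miR-99b-5p had 3 of 381 mouse reads and 1 of 270 rat reads with that start, and miR-100-5p had 0 of 42 and 1 of 20. The other reference miRNAs with at least 100 placed reads (17 for the mouse library, 19 for the rat library) had a median of 0% late starts. Their highest values were 18.3% in the mouse library (miR-6538) and 26.6% in the rat library (miR-140-3p), followed in the rat library by miR-6240 at 12.4%. These 3 were named after their values were seen, and miR-6538 and miR-6240 had only 2.78% and 11.3% of their reads at the reference start. They alone were above miR-10a-5p and miR-10b-5p in their libraries (1 of 17 and 2 of 19).

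**Figure D3:**
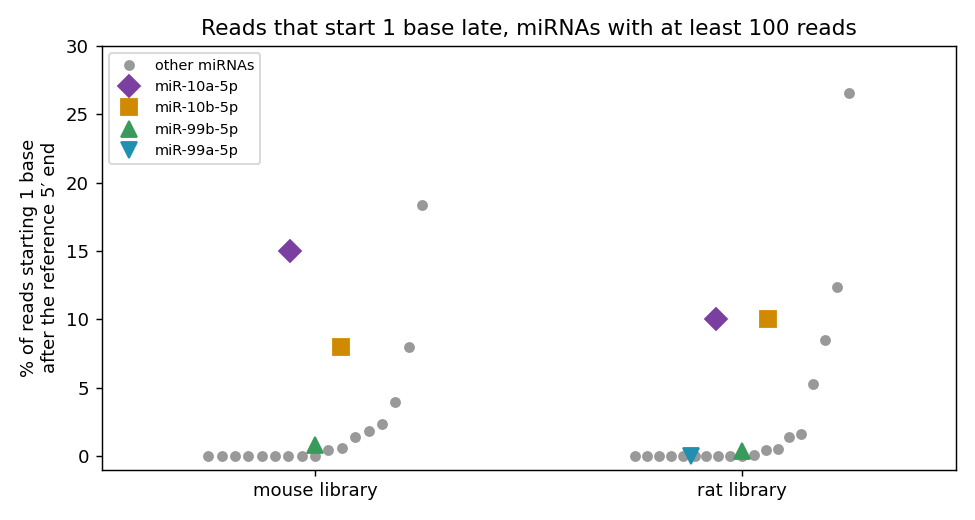
Percent of placed reads that begin 1 base after the reference 5′ end (vertical axis) in the mouse and the rat library, for every reference miRNA with at least 100 placed reads, sorted by value (grey) with the members in colour and horizontal position of no meaning. The miR-10 marks lie at 15.0% and 7.98% in the mouse library and at 9.997% and 10.03% in the rat library, while miR-99b-5p and miR-99a-5p lie near 0.

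An early start was rare and, by number of reads, was seen mostly for miR-10a-5p. That miRNA began 1 base before the reference in 40 of 4570 mouse reads (0.875%, 0.626 to 1.19) and 47 of 3221 rat reads (1.46%, 1.07 to 1.94). For miR-10b-5p this was 3 of 8867 (0.0338%) and 2 of 3889 (0.0514%). The extra base of the miR-10a-5p reads was A, the base of the mouse hairpin, in 36 of 40 mouse reads and 46 of 47 rat reads. The hairpin of miR-10b-5p has A there too, but its 3 early mouse reads had C, and its 2 early rat reads had A in 1 and C in 1. Of the rat miR-99a-5p reads, 5 of 150 (3.33%, 1.09 to 7.61) began 1 base early, all 5 with A. As a share this was above rat miR-10a-5p, with overlapping intervals. Of the mouse miR-99a-5p reads, 0 of 78 began early.

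The 2 ends of a miR-10 read were not independent. Among reads at the reference start, the last base was at position 23 or later in 16.9% of mouse miR-10a-5p reads (15.7 to 18.1) and 11.1% of mouse miR-10b-5p reads (10.4 to 11.8). Among reads that began 1 base late, it was there in 57.1% (53.3 to 60.9) and 61.2% (57.5 to 64.8). The rat library showed the same: 10.4% against 56.8% for miR-10a-5p and 9.18% against 65.4% for miR-10b-5p. Late reads thus also ended later. The most frequent last base at the reference start was 22 for both miRNAs in both libraries. At the late start it was 24 for miR-10b-5p in both libraries (318 of 708 mouse reads and 214 of 390 rat reads) and for rat miR-10a-5p (120 of 322), and 22 for mouse miR-10a-5p (267 of 686, with 234 at position 24). Late reads that end at position 24 are 23 nt long, the length of the reference.

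**Figure D4:**
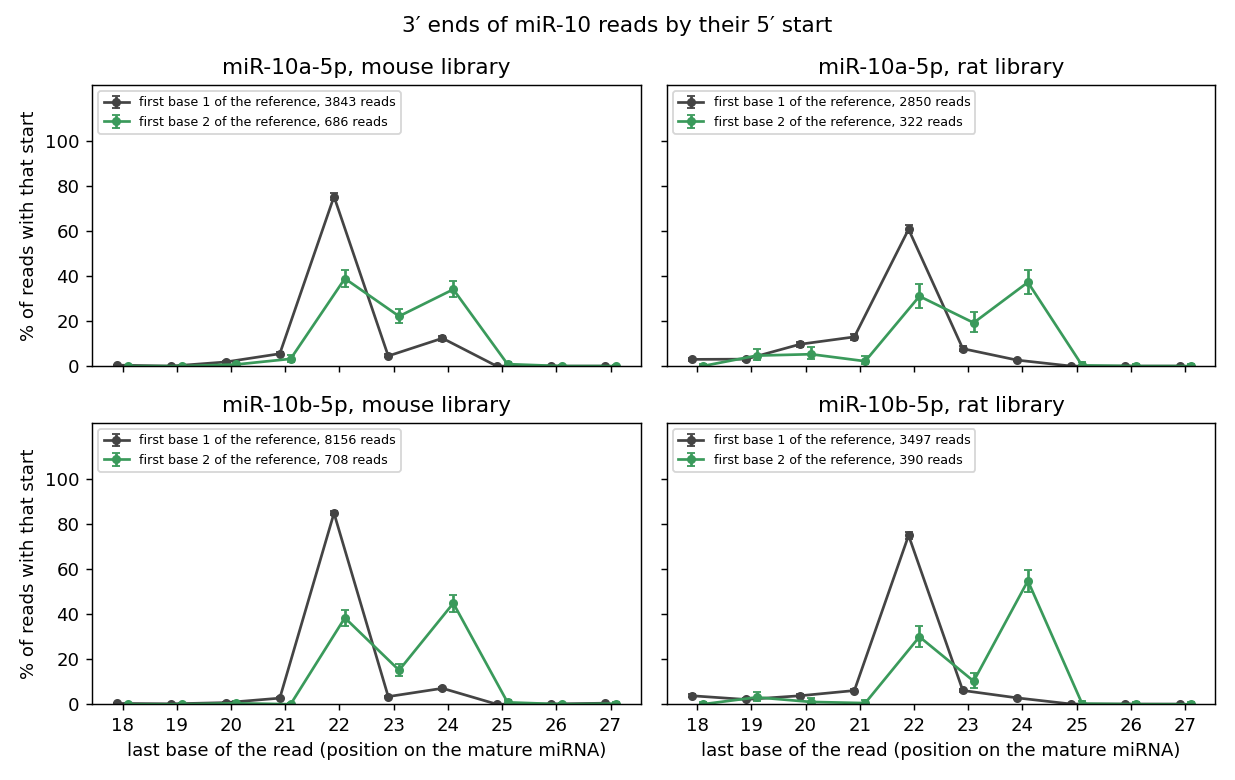
Position of the last base of miR-10a-5p and miR-10b-5p reads on the mature miRNA (horizontal axis) as a percent of the reads with the same start (vertical axis), for reads that begin at base 1 (grey) and at base 2 (green), with exact 95% intervals. The grey curves are highest at 22 in all 4 panels, with a smaller second peak at 24 in the mouse panels, while the green curves have high peaks at both 22 and 24.

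Reads were next set against the mouse hairpins to see whether the 3′ ends follow the precursor. For miR-10a-5p, 90.9% of mouse reads and 94.3% of rat reads matched it throughout, and for miR-10b-5p 94.3% and 94.5%. Reads that matched the hairpin past the mature end were 8.26% of mouse and 2.46% of rat miR-10a-5p, and 6.80% and 4.84% of miR-10b-5p. Reads whose last 1 to 3 bases left the hairpin were 8.52% (7.72 to 9.37) of mouse and 5.07% (4.34 to 5.89) of rat miR-10a-5p, and 5.36% (4.90 to 5.85) and 4.91% (4.26 to 5.64) of miR-10b-5p. These tails were of A only in 68.4% of tailed mouse and 59.6% of tailed rat miR-10a-5p reads, and in 64.2% and 52.9% for miR-10b-5p. Tails of G only came next, at 102 of 386 and 48 of 161 for miR-10a-5p and 103 of 475 and 60 of 191 for miR-10b-5p. The deposited rows held at most 2 mismatches to an entry, so longer untemplated tails could not be seen, and the rat reads were compared with a mouse hairpin. In rat miR-10b-5p reads named miR-10a-5p the miR-10b base already took 1 of these 2 mismatches. That left less room for a tail than in the other miR-10 reads.

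The base just past the mature end, the last of the 24 nt reads that match the mature sequence up to there, was T, as in the hairpin, in 280 of 465 mouse miR-10a-5p reads (60.2%) and 351 of 543 mouse miR-10b-5p reads (64.6%). It was A in 124 and 128 of them and G in 59 and 64. Among rat reads it was T in 30 of 71 miR-10a-5p reads (42.3%, 30.6 to 54.6) and 45 of 92 miR-10b-5p reads (48.9%, 38.3 to 59.6). Bases that do and do not match the hairpin were thus both common at this position. A T added after cutting would read the same as the hairpin's T, so these values do not separate them. The most abundant 24 nt sequences of the mouse library, in which the capital marks base 12, end in the hairpin's base.
miR-10a-5p, 280 reads: taccctgtagaTccgaatttgtgt
miR-10b-5p, 351 reads: taccctgtagaAccgaatttgtgt
In the mouse library 12 of 42 counted miR-100-5p reads had an untemplated tail (28.6%, 15.7 to 44.6), of which 10 were of A only. Of the rat miR-100-5p reads, 0 of 20 had one, which allows up to 16.8%, so the intervals of the main counts overlap only narrowly. The 42 mouse reads leave out the form of the reference length, whose count was lost. With months read as counts the mouse total was 49. The tail share was not computed on that total, and it would be lower if the lost reads have no tail. For miR-99a-5p, 1 of 78 mouse reads and 5 of 145 rat reads had an untemplated tail.

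Bases that differed from the miRNA were counted along the 22 nt reads. The base at position 12 decides which miR-10 a read is assigned to. The 0 found there in each series therefore does not measure differences, though it is part of the median below. Any difference was present in 2.53% (1.99 to 3.17) of mouse and 3.12% (2.36 to 4.04) of rat miR-10a-5p reads, and in 2.34% (2.00 to 2.72) and 3.44% (2.78 to 4.20) of miR-10b-5p reads. The limit on mismatches to an entry left less room for differences in rat miR-10b-5p reads named miR-10a-5p. The highest value of all positions was at the last base, position 22, with 1.33% and 0.851% for miR-10a-5p and 0.942% and 1.01% for miR-10b-5p. The median over positions 1 to 20 was 0.0342% and 0.0568% for miR-10a-5p and 0.04996% and 0.0561% for miR-10b-5p. Where the first 21 bases matched, the last base was A in place of the reference T in 28 mouse and 9 rat reads of miR-10a-5p and in 65 mouse and 13 rat reads of miR-10b-5p. G and C stood there in 7 and 3 mouse reads of miR-10a-5p, and in the rat library in 4 and 1 for miR-10a-5p and 11 and 2 for miR-10b-5p. For mouse miR-10b-5p both were at 0, and reading months as counts would put G at 11 and C at 8, so both bases were present under damaged identifiers.

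**Figure D5:**
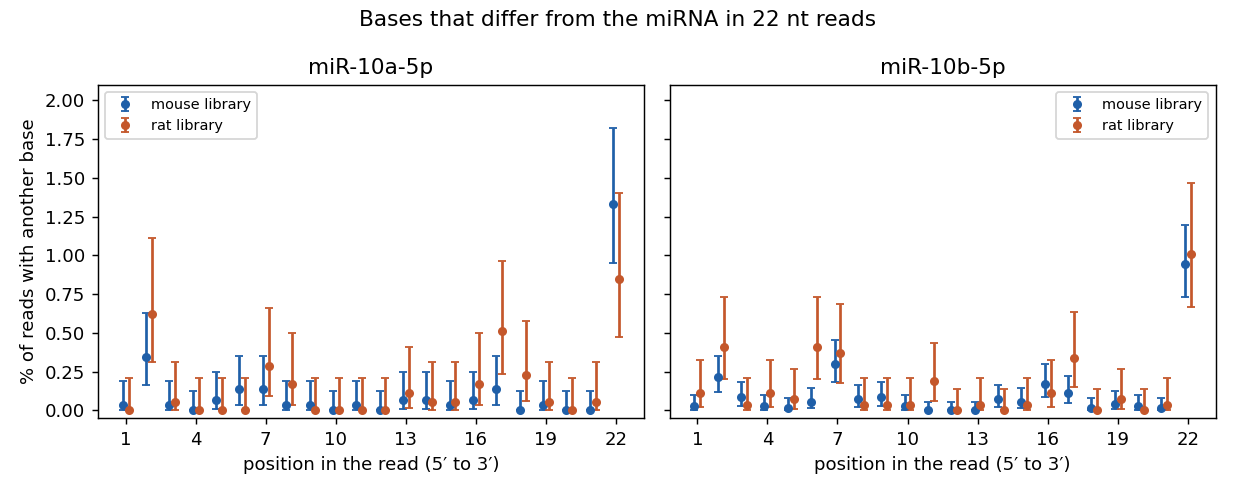
Percent of 22 nt reads with a base other than that of the miRNA (vertical axis) at each position from the 5′ end (horizontal axis), for miR-10a-5p and miR-10b-5p in the mouse and the rat library, with exact 95% intervals. The highest point of each series is at position 22, between 0.851% and 1.33%. Position 12 assigns the reads to miR-10a-5p or miR-10b-5p, so its 0 does not measure differences.

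The opposite strand of these hairpins, the 3p arm, was nearly without reads. By bases 3 to 16 of the 3p arms, the mouse library had 1 read, of miR-99a-3p, beside 12447 reads of the 5p arms. The rat library had 6, of which 4 were of miR-99a-3p, 1 of miR-10b-3p and 1 of miR-99b-3p, beside 6738. miR-10a-3p and miR-100-3p had 0 reads in both libraries, which, with a limit of 3 counts, allows up to 0.000434% of listed mouse reads and 0.000143% of listed rat reads. No row carried the name of a 3p arm of the 5.

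The miRNAs encoded beside the 5 were counted for comparison. miR-125a-5p and let-7e-5p, which lie in the cluster of miR-99b, had 28 and 9 mouse reads and 17 and 4 rat reads by start, where miR-99b-5p had 373 and 265. miR-125b-5p, encoded beside both miR-99a and miR-100, had 9 mouse and 7 rat reads. let-7c-5p, of the miR-99a cluster, and let-7a-5p, of the miR-100 cluster, share their first 18 nt, and that start had 354 mouse and 430 rat reads, a log2 ratio of -0.14 (-0.34 to 0.07). Members of the miR-99b cluster were thus present at very different numbers of reads, with miR-99b-5p far above miR-125a-5p and let-7e-5p in both libraries. Whether the let-7a-5p and let-7c-5p reads came from the miR-100 and miR-99a clusters was not tested. Reading months as counts would raise mouse miR-125a-5p to 57 and miR-125b-5p to 17 by name.

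Of the other Hox cluster miRNAs, miR-196b-5p had 96 mouse reads and 26 rat reads by start, a log2 ratio of 2.03 (1.39 to 2.71) on the miRNA scale. miR-196a-5p had 13 and 14 reads (0.04, -1.17 to 1.23). Reading months as counts would raise mouse miR-196a-5p from 9 to 21 by name, and its ratio was not computed with them. miR-615-3p had 0 reads by start in both libraries and 2 rat reads by name. The other Hox cluster miRNAs thus had far fewer reads than miR-10a-5p and miR-10b-5p in both libraries. The interval of miR-196b-5p lay above 0, that of miR-196a-5p included 0, and miR-615-3p had no ratio.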

How the data were processed

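Small RNAs of 18 to 45 nt were measured in 1 mouse and 1 rat library. The values are counts: per the file headers, the deposited lists give the reads of each distinct sequence, its strand, the entry it matched and the mismatches, of which there were at most 2. Bowtie 0.12.7, mm9 and rn5 are named without a role, per the submitters' processing notes. The sources used here do not give the trimming or mapping settings. In the mouse list 2535 sequences have a calendar month in place of the identifier that holds the count. The main values leave them out, and as an alternative the month was read as a count (7 to 12). Of them 13 belong to the 5 miRNAs. Identifier numbers in the lists skip 78279 mouse and 63001 rat values, which are not analysed here and are not part of the listed reads.

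Sequences were assigned by name, by the first 18 nt, or by bases 3 to 18, and set against RefSeq miRNAs (GRCm38.p6) and GENCODE M21 with Python 3.11.15, pandas 2.3.3 and scipy 1.17.1. Placing by bases 3 to 18 and the choice of the nearest member were tested on simulated reads of known member, start and error. The simulated reads held no early starts, no tails, no bases past the mature end and never more than a single error. The other steps were not simulated. Named were the 5 miRNAs, their most abundant sequences, those whose name and bases differ with at least 100 reads (10 for miR-99/100), and listed neighbours. The members and lists were chosen with earlier results of these data known.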

Additional observations from a re-analysis of the deposited data

How the results depend on the processing

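Each value rests on 1 library per species. No paired analysis was possible because each species has a single library. Scaled to all listed reads, the log2 ratio of mouse over rat was 2.04 for miR-10a-5p, 2.83 for miR-10b-5p, 2.09 for miR-99b-5p and 2.62 for miR-100-5p, and that of miR-99a-5p turned from -0.80 to 0.66. With reads of 20 to 24 nt only, miR-10a-5p was at 0.65 and miR-10b-5p at 1.43. Placing reads by bases 3 to 18, an alternative chosen after seeing the data, put miR-10a-5p at 0.65 and the mouse share of the miR-10b base at 65.99% in place of 68.0%. That share was 63.6% over distinct sequences and 69.1% over rows named as a miR-10, and the rat share was 50.98% over distinct sequences. The 5 miRNAs were 1.78% of all listed mouse reads and 0.335% of rat reads, 43.7% and 11.8% of mature and precursor reads, and 51.7% of mouse mature reads with months as counts. Of the alternative log2 ratios, 26 stayed within their counting interval, 7 left it and 1 changed sign. With sequences of at least 10 reads no ratio could be given for miR-100-5p, which then had no rat reads. For miR-100-5p and the 3p arms depth is the limit.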
